A study of Mus musculus with 24 samples.

Results

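The 9 genes Mbp, Mog, Mobp, Mag, Cnp, Opalin, Cldn11, Mal and Ermn are made in the brain almost wholly by mature oligodendrocytes, the glia that wrap axons in myelin. They were chosen by name as defining genes of the myelinating cell and were counted, among 52636 genes, in RNA-seq of the nucleus accumbens (NAc), a ventral striatal region of the reward circuit. The libraries came from 24 C57BL/6 mice (C57BL/6J in the study's methods) of 50 days (P50), 6 females and 6 males of each of 2 treatments (Con and MSUS), with 1 library per animal made from punches of the NAc of both sides. MSUS, maternal separation with unpredictable stress of the mother, means that the pups had been taken from the dam each day in the first weeks after birth, for 3 h per day in the study's methods and 2 h per day in the deposited design, and Con animals had been left undisturbed. Females and males of both kinds were wild type and were killed before any cocaine test. In punched tissue, fewer oligodendrocytes and less RNA per oligodendrocyte cannot be told apart.

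Myelin is a stack of oligodendrocyte membrane in which most cytoplasm has been squeezed out. Compact myelin holds its layers together with basic and membrane proteins, while adhesion proteins, enzymes and cytoskeletal proteins sit at its inner face, its outer face and in the remaining channels of cytoplasm. The genes are switched on together late in oligodendrocyte maturation, under the transcription factors SOX10 and MYRF. Myelin is laid down through adolescence and is known to respond to experience.

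All 9 genes were tested in every comparison, so none was lost to the filter on low counts. Levels are CPM, gene counts scaled to the size of the library, after TMM normalization. Per kilobase of merged exons, Mbp was the highest, with a mean of 232 CPM per kb over the 24 libraries, and ranked 57th of 21450 genes. Mobp (96.8 CPM per kb), Cnp (95.2), Mal (84.4) and Cldn11 (83.4) followed close together. Mag (41.5 CPM per kb), Mog (33.2) and Ermn (15.8) were lower, and Opalin was the lowest at 7.57 CPM per kb, rank 5857. Together the 9 genes took from 2788 to 4644 CPM per library. Raw counts per library were at least 889 for every gene, the fewest being those of Opalin.

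The bases ahead of 4 start sites are shown because they belong to the gene called between the sexes (Opalin), the gene with the most SOX motifs (Mobp), and a pair that varied closely together (Mag and Cnp). Sequences are from RefSeq on GRCm38.p6, 5′ to 3′ on the gene's strand, ending at or before the first annotated exon. Capitals mark the core letters ACAAAG or ACAATG bound by SOX factors and CTGGCAC or CTGGTAC bound by MYRF, on either strand, with no overlap between them. The windows are chr19:41077114-41077363 (minus strand) for Opalin, chr9:120149492-120149706 (plus) for Mobp, chr7:30914923-30915172 (minus) for Mag and chr11:100574689-100574903 (plus) for Cnp.
Opalin: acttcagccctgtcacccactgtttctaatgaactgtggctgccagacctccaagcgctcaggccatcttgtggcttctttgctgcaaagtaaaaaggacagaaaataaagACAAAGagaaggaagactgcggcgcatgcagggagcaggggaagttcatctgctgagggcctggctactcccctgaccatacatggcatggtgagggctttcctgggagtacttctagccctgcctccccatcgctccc
Mobp: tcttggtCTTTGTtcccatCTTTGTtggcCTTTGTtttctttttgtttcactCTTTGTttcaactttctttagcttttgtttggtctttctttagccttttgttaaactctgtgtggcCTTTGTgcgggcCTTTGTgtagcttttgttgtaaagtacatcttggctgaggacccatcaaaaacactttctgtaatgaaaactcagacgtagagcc
Mag: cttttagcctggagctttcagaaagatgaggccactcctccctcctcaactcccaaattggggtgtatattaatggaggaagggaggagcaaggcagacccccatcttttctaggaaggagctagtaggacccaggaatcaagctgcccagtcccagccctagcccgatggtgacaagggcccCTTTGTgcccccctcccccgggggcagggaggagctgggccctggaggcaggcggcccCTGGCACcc
Cnp: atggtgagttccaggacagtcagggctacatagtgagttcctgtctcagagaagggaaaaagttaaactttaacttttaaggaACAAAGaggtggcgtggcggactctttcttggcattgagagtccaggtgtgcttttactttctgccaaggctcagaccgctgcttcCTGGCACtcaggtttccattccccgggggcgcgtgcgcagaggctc
Mobp held 6 copies of the first SOX core, all as the reverse complement CTTTGT, in the 250 bases ahead of its start. Only 0.0215% of the 32536 different windows of that length searched over the genome held 5 or more SOX cores of either kind, and 25% held at least 1. Opalin held 1 SOX core and no MYRF motif, while the Mag window shown and that of Cnp each held 1 of both kinds. Mag had 3 annotated start sites, and the window ahead of 1 of them held neither motif. Of the 8 genes searched, 5 held a SOX core (Mobp, Opalin, Mag, Cnp and Ermn), and 3 held a MYRF motif (Mag, Cnp and Mog), against 5.94% of all windows. Neither motif was present in these windows of Mal and Cldn11. Mbp was not searched. A match is a description of the letters.

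Libraries held between 39923666 and 70575745 counts on genes. The share of uniquely mapped read pairs that matched no exon on the sense strand is called here the unassigned share. Pairs in introns or on the opposite strand count as unassigned. The unassigned share was higher in MSUS females (40.0% ± 2.72) than in Con females (32.7% ± 1.55) (SD, n = 6), with no overlap (difference of means 7.25 percentage points, exact two-sided permutation test, p = 0.00216, adjusted p = 0.0173 over 8 comparisons). It was lower in Con females than in Con males (38.0% ± 2.23, exact permutation p = 0.00433, adjusted p = 0.0173), and MSUS males (37.2% ± 4.55) overlapped both groups they were compared with. The 10 striatal neuron markers, present in every library, had summed levels of 1914 to 4991 CPM. The 6 cortical excitatory neuron markers, which should be scarce in the NAc, ranged from 9.38 to 1428 CPM, and their mean log2 level (the cortical score) differed by −2.20 between MSUS and Con females (exact permutation p = 0.0346, adjusted p = 0.0924).

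**Figure D1:**
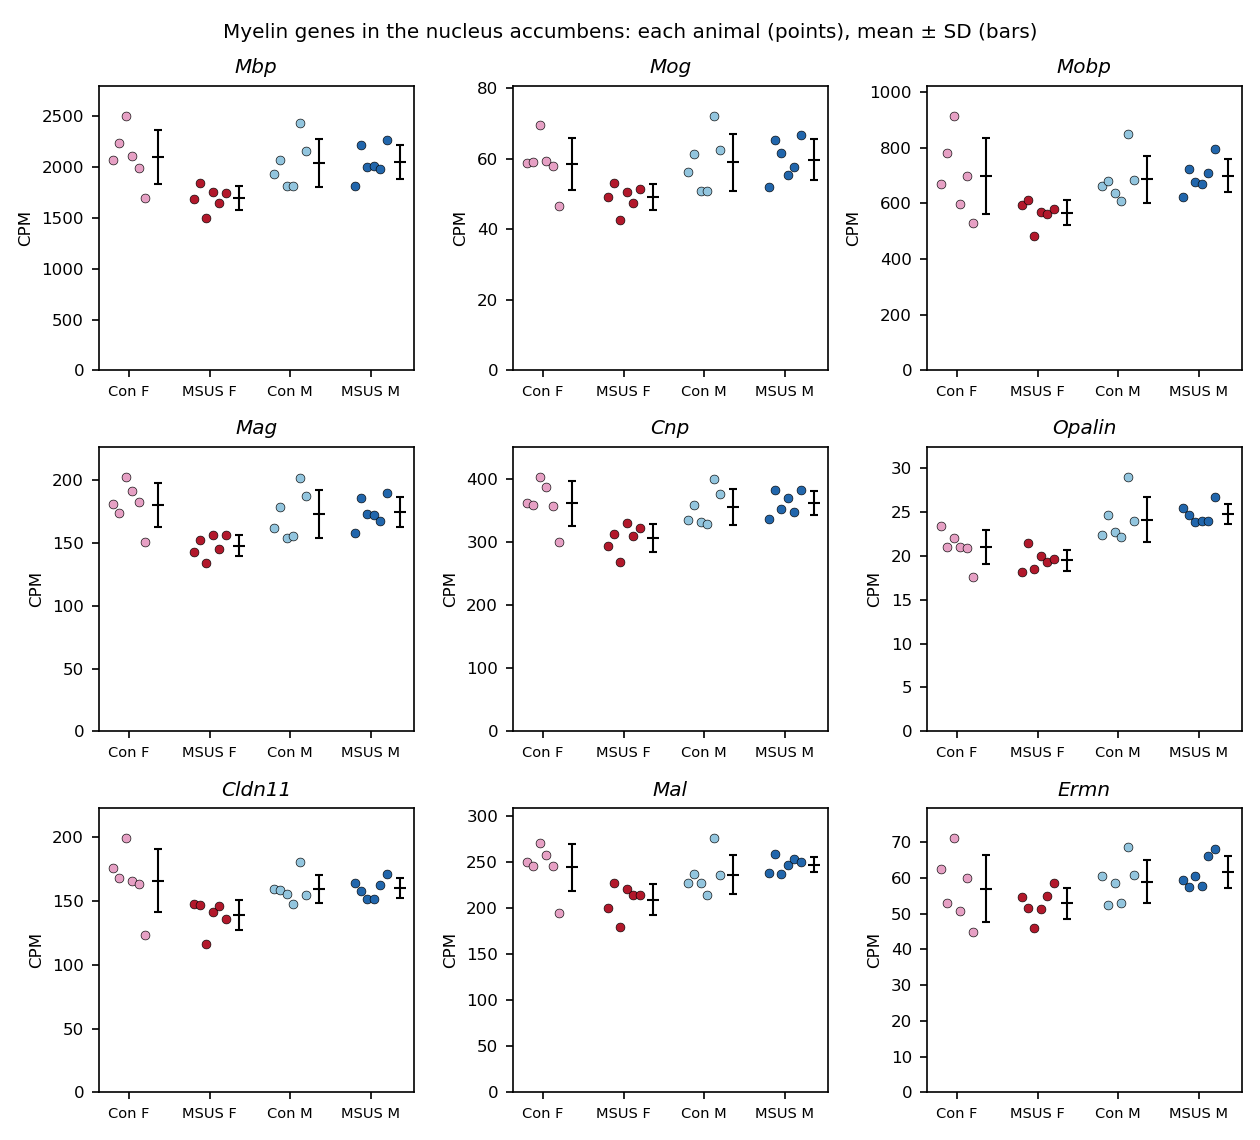
CPM (linear axis from 0) of the 9 myelin genes in each of the 24 animals (points, 6 per group, F female, M male), with the group mean ± SD beside them. Apart from Opalin and Ermn, MSUS females lie low in each panel, with highest values such as 1842 CPM for Mbp. The lowest Con female overlaps them, at 1695 CPM for Mbp. For Opalin and Ermn the female groups overlap widely, and the lowest animal is a Con female (17.5 and 44.9 CPM).

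The comparison of MSUS with Con females asked what early-life stress left behind in the NAc before any drug exposure. Of the 9 myelin genes, 7 were lower in MSUS females, and Opalin and Ermn did not pass. The threshold was 0.10 for p values of the quasi-likelihood test in edgeR, adjusted by Benjamini-Hochberg over 20571 genes. In the same comparison 11.9% of all genes were called lower. The median log2 fold change of the 9 genes was −0.25, against −0.0027 over all genes. The groups overlapped for all 9, and 3.6% of all genes were lower without overlap.

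Of the proteins that hold compact myelin together, MBP glues the inner faces of the membrane and MOBP helps to stabilize the stack. Mbp had 1695, 2088 and 2494 CPM (lowest, median and highest) in Con females and 1500, 1710 and 1842 CPM in MSUS females. All 6 MSUS females were below the Con median and 3 were below the lowest Con female, and the log2 fold change was −0.30 with a standard error (SE) of 0.079 (adjusted p = 0.0231 by edgeR). Mobp (chr9:120149707-120181484, plus strand) had 529, 684 and 912 CPM in Con females and 481, 574 and 612 CPM in MSUS females. Its log2 fold change was the same to 2 decimals, −0.30, with a larger SE of 0.11 (adjusted p = 0.0871 by edgeR), and the Con females were widely spread. A further gene on its strand shares 79 exonic bases with Mobp, and read pairs there are not counted for either.

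Mal (chr2:127633226-127656695, minus) encodes a proteolipid of compact myelin with 4 membrane spans, and Cldn11 (chr3:31149920-31164324, plus) the claudin of its tight junctions. Mal had 195, 248 and 271 CPM in Con females and 180, 214 and 227 CPM in MSUS females, or −0.22 on the log2 scale (SE 0.074, edgeR adjusted p = 0.0612). Cldn11 had 123, 167 and 199 CPM in Con females and 116, 143 and 147 CPM in MSUS females, or −0.25 on the log2 scale (SE 0.094, edgeR adjusted p = 0.0866). For both genes only 1 MSUS female was below the lowest Con female, and all 6 were below the Con median. In every MSUS female both genes were below their levels in the other 5 Con females.

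Away from compact myelin, MOG is displayed on the outermost layer, MAG binds the axon at the innermost, and CNP is the phosphodiesterase that keeps cytoplasmic channels open. Mag (chr7:30899176-30914873, minus) had 151, 182 and 202 CPM in Con females and 134, 149 and 156 CPM in MSUS females. Its log2 fold change of −0.28 (SE 0.063) had the smallest adjusted p of the 9 genes, 0.0128 by edgeR, and 3 MSUS females were below every Con female. Cnp (chr11:100574904-100591729, plus) had 300.0, 361 and 403 CPM in Con females and 269, 311 and 331 CPM in MSUS females, or −0.23 on the log2 scale (SE 0.068, edgeR adjusted p = 0.0353). Mog (chr17:37010743-37023398, minus) had 46.5, 59.0 and 69.5 CPM in Con females and 42.7, 50.0 and 53.2 CPM in MSUS females, or −0.25 on the log2 scale (SE 0.078, edgeR adjusted p = 0.0491). For all 3 the MSUS females lay below the median of Con females.

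Ermn and Opalin gave smaller fitted differences with wide overlap. Ermn (chr2:58045113-58052864, minus), whose product ermin binds actin in oligodendrocyte processes, had 44.9, 56.4 and 71.0 CPM in Con females and 46.1, 53.2 and 58.5 CPM in MSUS females. Its log2 fold change was −0.10 (SE 0.096, adjusted p = 0.478 by edgeR), with an approximate 95% interval of −0.29 to 0.085 that includes the median of the 9 genes. When gene length and GC content entered as an offset, however, Ermn passed with a log2 fold change of −0.35 (edgeR adjusted p = 0.0408), the most negative of the 9. Opalin (chr19:41061710-41077113, minus), a small transmembrane glycoprotein of oligodendrocytes, had 17.5, 20.9 and 23.4 CPM in Con females and 18.1, 19.5 and 21.4 CPM in MSUS females. Its log2 fold change was −0.099 (SE 0.063, adjusted p = 0.290 by edgeR), with an interval of −0.22 to 0.025.

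These differences moved with the unassigned share. With it as a covariate, 0 of the 9 genes and 0 of all 20571 genes passed in edgeR (1174 at an unadjusted p under 0.05), the log2 fold changes of the 9 ranged from −0.20 (Mbp) to 0.18 (Ermn), and 5 of the 9 were above 0. As the female groups do not overlap in this share, it cannot be told apart from MSUS in females. With those offsets 4 of the 9 passed (Mbp, Mog, Mal and Ermn), against 8.16% of all genes called lower, and Mag (−0.16, adjusted p = 0.106 by edgeR), Cnp (−0.15, adjusted p = 0.145), Mobp (−0.20, adjusted p = 0.221) and Cldn11 (−0.25, adjusted p = 0.128) did not. With the cortical score as a covariate only Mag passed (−0.25, adjusted p = 0.0972 by edgeR), where 578 of 20571 genes were called lower. Among libraries numbered 1 to 12 in the labels, 3 of each group, all 9 differences of mean log2 CPM were below 0 (median −0.40), and among libraries 13 to 24 there were 7 of 9 (median −0.094), with Opalin at 0.043 and Ermn at 0.12. Leaving out 1 animal changed the number of the 9 genes past the threshold. It fell to 3 (Mbp, Mag and Cnp) without MSUS female 3, where 1380 of 20728 genes were called lower. It was 4 without Con female 1 (1983 of 20753 called lower) or Con female 3 (2241 of 20742). It rose to 8 without Con female 6 (2626 of 20740), the Con female with the lowest summed level of the 9 genes (3103 CPM). Over the 12 such fits the call was lost for Cldn11 in 10, Mobp in 9, Mal in 3 and Mog in 1.

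**Figure D2:**
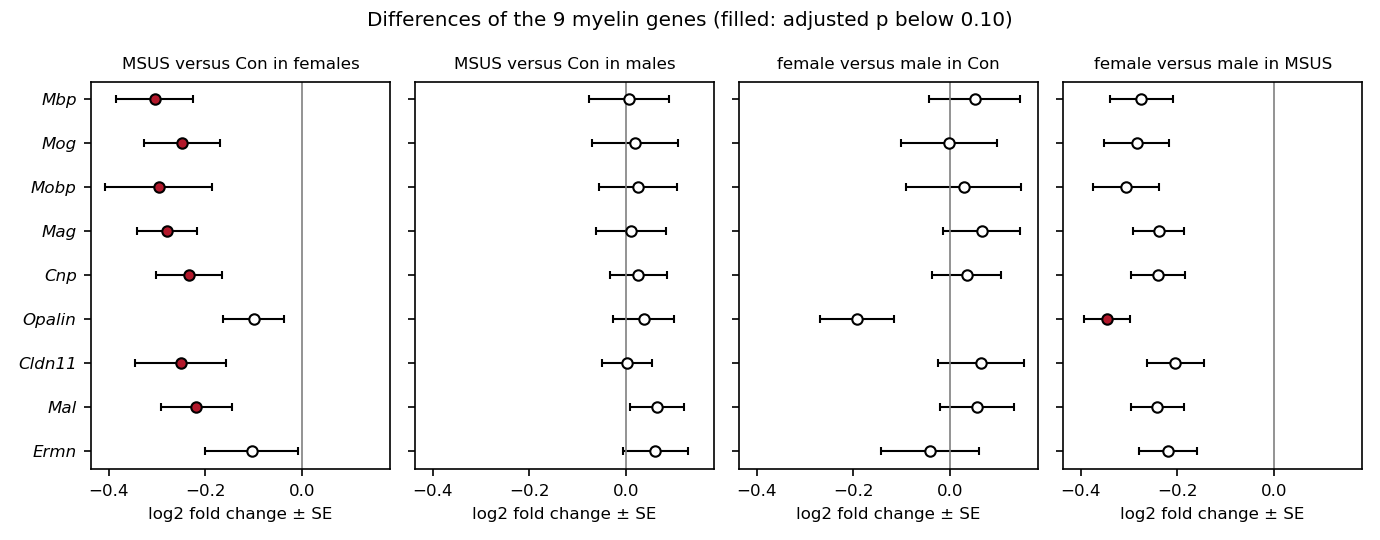
Log2 fold changes (points) ± SE (bars) of the 9 genes in 4 comparisons, MSUS over Con in each sex and female over male in each group, 6 animals against 6; filled points have an adjusted p below 0.10 in edgeR. In females 7 points are filled, in males all lie between 0.003 and 0.065, and among MSUS animals all lie between −0.34 and −0.20 with Opalin filled.

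In males, 0 of the 9 genes differed past the threshold between MSUS and Con animals. Log2 fold changes ranged from 0.003 (Cldn11) to 0.065 (Mal), all adjusted p values were 1 in edgeR, and 0 of the 9 genes had an unadjusted p under 0.05. No gene of the 20691 tested passed (0%), with 191 at an unadjusted p under 0.05, and DESeq2 called none either, with 304 at an unadjusted p under 0.05. Mbp had 1813, 1998 and 2435 CPM (lowest, median and highest) in Con males and 1811, 2004 and 2267 CPM in MSUS males, and its approximate 95% interval ran from −0.15 to 0.17. Mag had 154, 170 and 202 CPM in Con males and 158, 173 and 190 CPM in MSUS males, with an interval from −0.13 to 0.15. In females the intervals were −0.46 to −0.149 for Mbp, which overlaps the male interval, and −0.40 to −0.16 for Mag. Intervals of separate sexes are no test of a difference between them.

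The interaction is the test of whether the MSUS differences of the sexes differ. All 9 genes were more negative in females, by −0.14 (Opalin) to −0.33 (Mobp) on the log2 scale, and 7 had an unadjusted p under 0.05. None of the 9 passed over 21500 genes (adjusted p from 0.200 to 0.434, edgeR), and none of all genes did (0%, with 4031 at an unadjusted p under 0.05). DESeq2 called 0 of the 9 and 390 of all genes. Mag, at −0.29 (SE 0.099, adjusted p = 0.200 by edgeR), and Mal, at −0.29 (SE 0.096), had the smallest p values. A difference between the sexes in the response of these genes was thus not established at the threshold, and without MSUS male 1 the count became 4 of 9 (Mbp, Mag, Cnp and Mal), while the calls over all genes rose from 0 to 3031 (5.72% of genes called lower). With the unassigned share as a covariate the 9 interaction terms lay between −0.15 (Cldn11) and −0.0095 (Mog).

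Con females and Con males did not differ past the threshold in any of the 9 genes by edgeR or DESeq2, while 1.84% of 20641 genes were called lower in females. The calls over all genes, 544 in both directions, ranged from 20 to 1395 when 1 animal was left out. Differences ranged from −0.19 (Opalin) to 0.066 (Mag) on the log2 scale, female over male. An unadjusted p under 0.05 was found for 3670 of all 20641 genes and, of the 9, for Opalin alone (log2 fold change −0.19, SE 0.077, adjusted p = 0.212 by edgeR). It had 17.5, 20.9 and 23.4 CPM in Con females and 22.1, 23.3 and 28.9 CPM in Con males, so that 5 of 6 Con females lay below every Con male. Between these groups the unassigned share differed too, and with it as a covariate the Opalin difference was −0.53 (adjusted p = 0.0968 by edgeR) and that of the other 8 genes −0.35 to −0.17, none of them past the threshold.

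Among MSUS animals all 9 fitted differences, female over male, were below 0, and 1 of them, Opalin, passed the threshold. Differences ran from −0.20 (Cldn11) to −0.34 (Opalin), and all 9 had an unadjusted p under 0.05. Of the 20714 genes tested, 1511 had an unadjusted p under 0.05 and 0.0966% were called lower. The female and male values did not overlap for 6 of the 9 genes (Mobp, Mag, Cnp, Opalin, Cldn11 and Mal), against 0.43% of all genes lower without overlap. Mobp, for example, had 481, 574 and 612 CPM in MSUS females and 623, 692 and 797 CPM in MSUS males (log2 fold change −0.31, SE 0.068, adjusted p = 0.194 by edgeR). Mbp had 1500, 1710 and 1842 CPM in MSUS females and 1811, 2004 and 2267 CPM in MSUS males, and 5 of 6 females lay below every male (−0.27, SE 0.065, adjusted p = 0.228 by edgeR).

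The call for the other genes in this comparison turned on the tool. DESeq2 called 7 of the 9 lower, all except Cldn11 and Ermn, against 0.5% of all genes with an adjusted p, and edgeR with library set as a covariate called 7 too, against 0.275% of all genes. The unassigned share overlapped here (36.3% to 43.9% in MSUS females and 32.2% to 44.7% in MSUS males, exact permutation p = 0.216, adjusted p = 0.312). With it as a covariate the 9 differences were −0.34 to −0.18, and Opalin still passed (−0.34, adjusted p = 0.0266 by edgeR). The direction held for all 9 within libraries 1 to 12 (median −0.26) and within libraries 13 to 24 (median −0.24), each with 3 animals per group. Without MSUS male 1 the count by edgeR was 5 of 9 (Mbp, Mog, Mobp, Mag and Opalin), against 0.22% of all genes called lower. This comparison shares its MSUS females with the comparison of MSUS and Con females.

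Opalin was low in nearly all females. In MSUS females it had 18.1, 19.5 and 21.4 CPM and in MSUS males 23.9, 24.3 and 26.6 CPM, or −0.34 on the log2 scale (SE 0.048, edgeR adjusted p = 0.00803), a result known when the genes were chosen. Over all animals, 11 of 12 females lay below the lowest male at 22.1 CPM, and the remaining Con female had 23.4 CPM. With the cutoff set at Opalin's own count, at least 11 of 12 females lay below every male for 0.0465% of 21500 genes. For the other 8 genes this was so in 5 to 7 of 12 females. A model with sex and group as additive terms over the 24 animals, added after the data were seen, gave Opalin a log2 fold change of −0.27, female over male (SE 0.047, adjusted p = 0.00551 by edgeR), and called 0.112% of all genes lower in females. It did not call the other 8 genes (−0.15 to −0.073, adjusted p of 0.637 or more). Opalin passed in each of the 24 fits that left out 1 animal (−0.29 to −0.25) and with the unassigned share as a covariate (−0.29, adjusted p = 0.000521 by edgeR). With that covariate Cnp passed too (−0.14, adjusted p = 0.0940 by edgeR). The calls over all genes in that fit are not reported here, so the call for Cnp has no background beside it.

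Relative to the other 8 genes in the same library, Opalin was lowest in Con females. Its log2 CPM minus the mean log2 CPM of the other 8 averaged −3.54 ± 0.10 for Con females and −3.32 ± 0.045 for Con males (SD, n = 6). For MSUS it averaged −3.40 ± 0.083 among females and −3.31 ± 0.074 among males. Con females and Con males did not overlap in this difference (−3.72 to −3.41 and −3.38 to −3.28), while MSUS females (−3.51 to −3.28) and MSUS males (−3.36 to −3.16) did. These differences are given as a description, without a test.

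**Figure D3:**
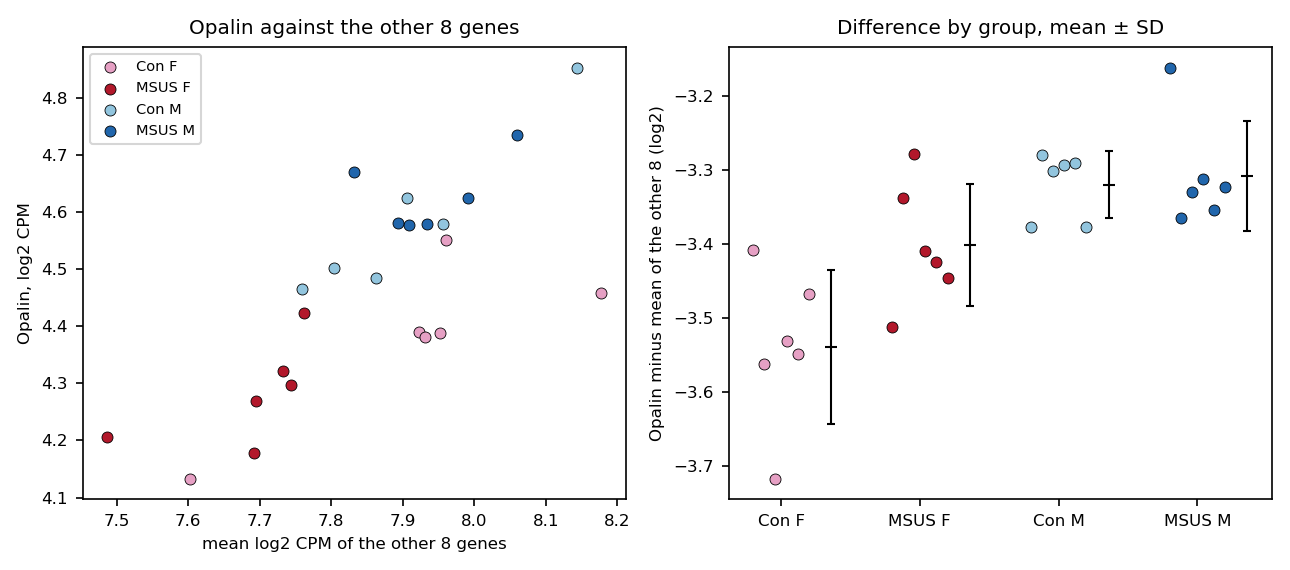
Left, log2 CPM of Opalin against the mean log2 CPM of the other 8 genes in each of 24 libraries; right, Opalin minus that mean (log2) by group, with the mean ± SD (n = 6). At a given level of the other genes most female points lie below the male points, and the mean difference is −3.54 in Con females and −3.32 in Con males.

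Across animals the 9 genes varied together. After removal of group means, Pearson's r of log2 CPM over the 24 libraries was above 0 in all 36 pairs, with a lowest value of 0.59 (Opalin and Ermn), a median of 0.77 and a highest value of 0.97 (Mbp and Mog). All 36 had an adjusted p under 0.05 (permutation test with 100000 resamples, largest adjusted p = 0.00237), and Spearman's rho ran from 0.38 to 0.95, with 34 of 36 past it. The tightest pairs were Mbp and Mog, Mag and Cnp (r = 0.96, rho = 0.95), and Mog and Mag (r = 0.95, rho = 0.92). Ermn was the loosest, with a median r of 0.64 with the other genes. Without the 2 libraries farthest from the median of the first gene, r was 0.35 to 0.95 and 33 of 36 pairs passed, the exceptions being Ermn with Opalin, Cnp and Mag. Within libraries 1 to 12 r was 0.54 to 0.98 and within libraries 13 to 24 it was 0.58 to 0.97, with 35 of 36 pairs past it in each. By Spearman's rho fewer pairs passed, 26 without the 2 farthest libraries, 29 within libraries 1 to 12 and 11 within libraries 13 to 24. All the points of a pair share their library, its depth and its scaling. Many other genes varied with the 9 as well. Among 14304 genes, an r of 0.61 with the mean deviation of the 9 ranked 1435th, and an r of 0.44 ranked 3436th. The share of all gene pairs with r as high as in the 36 was not computed.

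**Figure D4:**
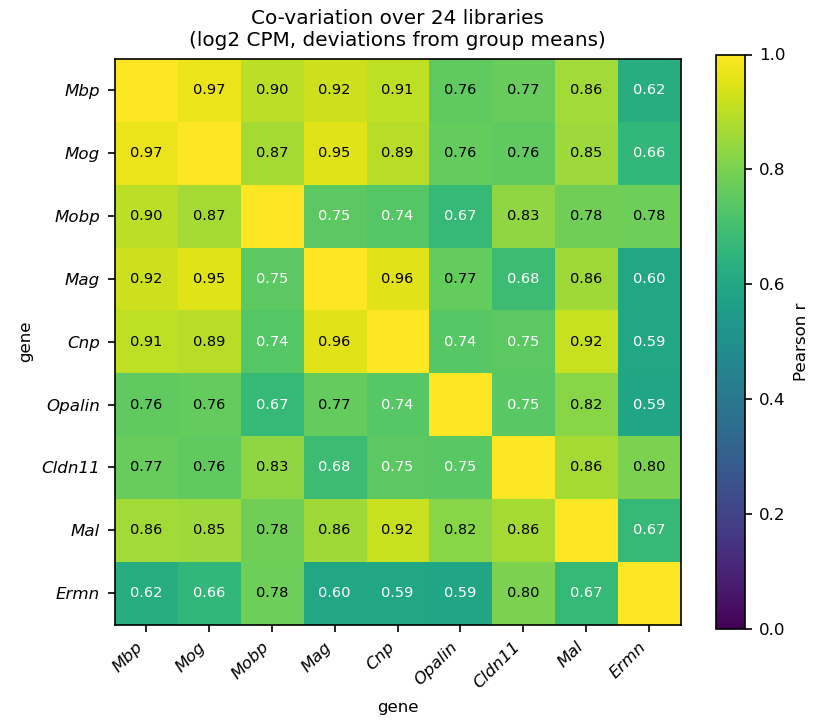
Pearson's r (colour and printed values) between the 9 genes over 24 libraries, from log2 CPM with group means removed. Mbp, Mog, Mag and Cnp form the block of highest values, up to 0.97, and the Ermn row holds the lowest, down to 0.59.

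The shared variation went with both library measures. With group means removed, the unassigned share was negatively related to all 9 genes, from r = −0.69 (Mag, rho = −0.72, permutation p = 0.00021, adjusted p = 0.00216) to r = −0.30 (Cldn11, rho = −0.27, permutation p = 0.151, adjusted p = 0.160), and 5 of 9 had an adjusted p under 0.05 over 18 relations. Without the 2 libraries farthest from their group means in this share, r was −0.71 (Cnp) to −0.26 (Ermn). Within libraries 1 to 12 r was −0.70 to −0.43 and within libraries 13 to 24 it was −0.65 to −0.41, with no adjusted Pearson p under 0.05 at 12 libraries. By Spearman's rho (permutation test), all except Opalin and Cldn11 (both adjusted p = 0.115) had an adjusted p under 0.05 within libraries 1 to 12. None did within libraries 13 to 24 (lowest adjusted p = 0.0957, Mag and Cnp). The cortical score was positively related to all 9, from r = 0.27 (Cnp, rho = 0.23, permutation p = 0.204, adjusted p = 0.204) to r = 0.66 (Mobp, rho = 0.73, permutation p = 0.00036, adjusted p = 0.00216), again with 5 of 9 past it. Without the 2 farthest libraries r was 0.38 to 0.70, within libraries 1 to 12 it was 0.38 to 0.66, and within libraries 13 to 24 it was 0.13 to 0.70. What part these measures have in the group differences was not tested.

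**Figure D5:**
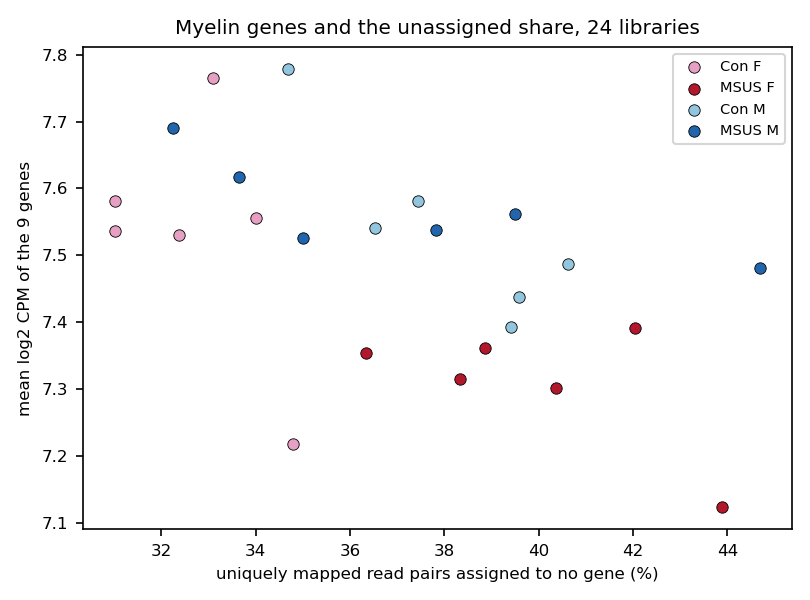
Mean log2 CPM of the 9 genes against the percentage of uniquely mapped read pairs assigned to no gene, 1 point per library in 4 groups of 6. Con females lie between 31.0% and 34.8% and MSUS females between 36.3% and 43.9%, so that no library of one female group shares its range with the other.

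The genes most like the 9 in their variation included other oligodendrocyte genes. Among 14304 genes with a mean of at least 100 counts, those with the highest r to the mean deviation of the 9 genes over 24 libraries included Fa2h (0.93), Lpar1 (0.92), Adamts4 (0.92), Tmem88b (0.91), Prr18 (0.91), Micall1 (0.91), Unc5b (0.89), Bcas1 (0.88) and Ccp110 (0.88). Of these, 5 were on the lists of oligodendrocyte genes described next, and Prr18, Micall1, Unc5b and Ccp110 were on none. The likeness is a description and has no test.

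In the wider oligodendrocyte lists every call in females was lower in MSUS. Of 26 other genes of mature oligodendrocytes, 16 were lower in MSUS females, against 11.9% of all genes, 0 were higher, and the median log2 fold change was −0.23. The tetraspanin gene Cd9 (25.6 ± 1.84 CPM in Con and 21.7 ± 0.63 in MSUS females, log2 fold change −0.23, SE 0.048, adjusted p = 0.00884) and the deacetylase gene Sirt2 (−0.19, SE 0.042, adjusted p = 0.0104 by edgeR) had the smallest p values.

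Of 8 genes for myelin lipids, 3 were lower (median −0.18). They were Gltp, a glycolipid carrier (−0.19, SE 0.053, adjusted p = 0.0292 by edgeR), Fa2h, the fatty acid 2-hydroxylase of myelin galactolipids (−0.26, SE 0.083, adjusted p = 0.0498), and Gal3st1, the sulfatide synthase (−0.25, adjusted p = 0.0911), the last named after its value was seen. Of 8 transcription factors of the lineage, 2 were lower (median −0.10): Olig1 (−0.19, SE 0.058, adjusted p = 0.0402 by edgeR) and Myrf (−0.22, SE 0.070, adjusted p = 0.0503). Of 12 genes of precursors and newly formed oligodendrocytes, 1 was lower (median −0.061), a share no higher than the 11.9% of all genes. It was Bcas1, a gene of newly myelinating cells (−0.25, SE 0.085, adjusted p = 0.0598 by edgeR). Enpp6, a second gene of newly formed cells, was next at −0.17 (SE 0.087, adjusted p = 0.199). In males none of these 54 genes passed, and between Con females and males none did either. Between MSUS females and males 3 of the 26 mature genes were lower in females, Cd9 (−0.26, adjusted p = 0.0112), Plekhh1 (−0.31, adjusted p = 0.0347) and Tmem88b (−0.30, adjusted p = 0.0780 by edgeR), and 0 of the other 28. In that comparison 0.0966% of all genes were called lower.

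Markers of other cells in the punch were counted in the same way. In MSUS against Con females 0 of 10 striatal neuron, 3 of 8 astrocyte, 0 of 8 microglia and 1 of 8 endothelial markers were called, all lower, with medians of 0.086, −0.068, −0.018 and −0.092 on the log2 scale, where 11.9% of all genes were called lower. Of the 6 cortical markers 2 were called lower, with a median of −1.83. The summed astrocyte level was 6043 to 6597 CPM in Con and 5626 to 6228 CPM in MSUS females. The part of cell composition in the myelin gene differences was not tested.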

How the data were processed

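Per the labels and the study's methods, the authors depleted ribosomal RNA, sequenced 100 bp read pairs, and aligned them with STAR (2.6.1b in the submitters' processing notes) to mm10 with GENCODE M15. The deposited values are raw counts, the number of uniquely mapped read pairs of each gene, with 1 column that ignores strand and 1 for each strand. The column for the sense strand was used. Pairs that fall in exons of more than 1 gene, or in several places, are not counted, and unspliced RNA is not removed by the library method.

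Groups and animals came from the sample titles. Stages of the estrous cycle were not used, since the labels give them to males and to only part of the females. Genes were filtered with edgeR 4.0.16 (filterByExpr, minimum count 10), normalized by TMM and tested with the robust quasi-likelihood F test in R 4.3.3, within the 12 animals of a comparison or, for the interaction, over 24. Benjamini-Hochberg adjustment ran over all genes tested, with a threshold of 0.10. The standard error is the log2 fold change over the square root of F, and approximate 95% intervals follow from it. The procedure was tested on simulated counts. Log2 CPM used a prior count of 2. Permutation tests were two-sided. The exact test of 6 against 6 was used for library measures, 100000 resamples for correlations.

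The 9 genes and all lists were chosen with earlier results of these data known. All 9 genes are reported in each comparison. From each further oligodendrocyte list, the 2 genes with the smallest p in females are named, with the 10 genes of highest likeness except 1 that is not reported here and, after their values were seen, the further genes called where 5 or fewer were. Gene positions came from GENCODE M21 (GRCm38), which holds 52489 of the 52636 gene identifiers. No 2 libraries were copies of each other. Alternatives were DESeq2 1.42.0, its size factors, no filter, counts without regard to strand, a block for replicate number, library set (1 to 12 against 13 to 24), the unassigned share or the cortical score as a covariate, an offset for gene length together with GC content, and each animal left out. The model of sex over 24 animals was added after the data were seen. Promoter bases came from RefSeq. Proteins were not analysed here. Figures were drawn with matplotlib and tables made with pandas and scipy in Python.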

Additional observations from a re-analysis of the deposited data

Results flagged for a closer look

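In 5 of the 36 sets of 6 values (9 genes in 4 groups), the lowest or highest animal stood apart from the others, with a gap over range above Dixon's 95% critical value. Chance gives about 1 in 20. Con male 5 was the highest Con male for Mobp (850.3 CPM), Cldn11 (180.6 CPM) and Mal (275.9 CPM). Con female 6 was the lowest Con female for Mal (195.4 CPM), and MSUS female 3 the lowest MSUS female for Cldn11 (116.2 CPM). These values are not independent, since the genes vary together. No interaction of group and sex among the 9 genes passed its threshold.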

How the results depend on the processing

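For MSUS against Con in females, 7 of 9 genes passed. The count was 3 with a replicate block, 0 with the unassigned share and 1 with the cortical score. With offsets for GC content and length it was 4, where Ermn gained a call and Mobp, Mag, Cnp and Cldn11 lost theirs. It was 5 to 7 under the other alternatives, and 3 to 8 when 1 animal was left out (3 without MSUS female 3, 4 without Con female 1 or 3). Of all 20571 genes, 2458 were called lower in the main fit and 1647 with the block. With the unassigned share 0 were, with the cortical score 578 and with the offsets 1678. Same-numbered animals correlated at −0.37 to 0.40. In most cases another number correlated more, but in some the same number was highest (Con sexes, number 4: 0.34 against at most 0.28). Whether the numbers pair the animals was thus not settled. The block changed no other count of the 9 genes. Between Con sexes 1 gene passed with the unassigned share, where 9 of 20641 genes were called lower. Between MSUS sexes 7 passed by DESeq2, 7 with library set and 2 with the GC offsets (25 of 20714 genes called lower). With an animal left out 1 to 5 passed (5 without MSUS male 1), and 0 to 4 for the interaction. The sex term over 24 animals had 2 with the unassigned share, added after the data were seen, and the calls over all genes in that fit are not reported here.

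Some log2 fold changes changed sign. In females with the unassigned share these were Cnp 0.017, Opalin 0.035, Cldn11 0.0050, Mal 0.025 and Ermn 0.18, and with the cortical score Ermn 0.0066. In males they were Mbp −0.021, Mog −0.010, Mag −0.014 and Cldn11 −0.0016 with the unassigned share, Mbp −0.0057 and Cldn11 −0.0062 with the cortical score, and Mbp −0.0078 with the GC offsets. Between Con sexes they were Mog 0.019 without regard to strand and 0.00032 with the block. With the unassigned share they were Mbp −0.22, Mobp −0.23, Mag −0.255, Cnp −0.21, Cldn11 −0.17 and Mal −0.22, and with the cortical score Mbp −0.028, Mobp −0.10, Cnp −0.00073 and Cldn11 −0.016. With the GC offsets they were Mbp −0.0091, Mog 0.0039, Mobp −0.049, Mag −0.027, Cnp −0.030 and Ermn 0.16. With 1 animal left out, ranges that crossed 0 in males were Mbp −0.025 to 0.064, Mog −0.021 to 0.084, Mobp −0.015 to 0.095, Mag −0.022 to 0.058 and Cldn11 −0.018 to 0.041. Between Con sexes they were Mbp −0.019 to 0.10, Mog −0.072 to 0.051, Mobp −0.077 to 0.092, Cnp −0.014 to 0.077, Cldn11 −0.0092 to 0.13 and Ermn −0.13 to 0.014. None of these passed the threshold. The cause was not tested.

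Over all genes, 5156 passed in females, against 3800 with the block, 0 with the unassigned share, 1614 with the cortical score and 3377 with the GC offsets. Between Con sexes 544 passed (165 higher, 379 lower), against 1485 by DESeq2, 1362 without regard to strand, 338 without a filter, 12 with the block, 11 with the unassigned share, 38 with the cortical score and 104 (67 higher, 37 lower) with the GC offsets. Between MSUS sexes 28 passed, against 159 by DESeq2 and 71 with library set. The interaction gave 0, against 390 by DESeq2. With 1 animal left out the totals were 3102 to 5737 in females (3102 without MSUS female 3 and 3358 without MSUS female 2). Between Con sexes they were 20 to 93 without Con female 1, 2, 4 or 5 or Con male 1, 3 or 4, 284 without Con male 6 and 1395 without Con male 5. Between MSUS sexes they were 14 to 18 without MSUS female 2 or 3 or MSUS male 3, 4 or 5, and 64 without MSUS male 1. For the interaction they were 0 or 1 except 3031 without MSUS male 1. Opalin, with the fewest counts, is the gene most affected by counting error.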
